A study of Homo sapiens with 6 samples.

Results

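The genes described here encode the proteins of the cytosolic ribosome, with the paralogues that some of them have. They were taken by name, as rows of the expression table that hold a single gene symbol of a set form. That form is RPL, RPS or RPLP with a number, optionally a letter A, X or L and a further number, and nothing more. The symbol RPSA was also taken. The rule gave 75 of the 18268 rows, made up of 40 canonical large-subunit genes, 28 canonical small-subunit genes and 7 paralogues. RNA was sequenced from MIA PaCa-2, an established human pancreatic carcinoma cell line, in 3 libraries from cells labelled as overexpressing the long noncoding RNA LINC00901 and in 3 libraries from cells labelled as vector control, with pCDH in their titles. Both sets of cells were grown in DMEM with fetal bovine and horse serum, and total RNA was the starting material. The labels do not say whether the replicates were separate cultures or how many clones each line came from, so p-values measure the spread between these libraries, which may be technical. No row names LINC00901, so its overexpression was not checked here.

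Each ribosomal subunit is built from ribosomal RNA and a fixed set of ribosomal proteins, most of them present in a single copy per ribosome, and the genes are expressed at high levels in growing cells. Their mRNAs carry a terminal oligopyrimidine (TOP) start, a C followed by a run of C and U at the very beginning of the transcript, through which the mTOR pathway and the RNA-binding protein LARP1 control their translation and stability. A few genes have a second copy elsewhere in the genome that arose by duplication or retrotransposition, and several of these copies are expressed mainly in testis or striated muscle.

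Values are FPKM, fragments scaled to gene length and to the mapped fragments of the library, so they are already set per length and can be compared between genes. The depth of each library is unknown. FPKM summed to 127768 to 128538 in the overexpression libraries and to 87162 to 88738 in the vector libraries, and over the 9694 rows with a mean of at least 1 FPKM the median gene was higher by 0.27 log2 in the overexpression libraries. Log2 differences of single genes are therefore given relative to this median gene ("relative log2 difference", on the scale of log2(FPKM + 0.5), overexpression minus vector), while each adjusted p is that of limma on the unscaled values, with Benjamini-Hochberg adjustment over all 9694 rows. A gene is called when that adjusted p is under 0.05. The labels call the cells epithelial. KRT18, an epithelial keratin, stood at 62.5 to 86.9 FPKM in the overexpression libraries and at 90.9 to 105 FPKM in the vector libraries, and KRT8, in a row joined with KRT78, at 14.8 to 16.6 FPKM in the overexpression libraries and at 19.7 to 27.8 FPKM in the vector libraries. KRT19, another such keratin, went the other way, at 22.9 to 25.02 FPKM in the overexpression libraries and 2.22 to 5.92 FPKM in the vector libraries. KRT7 reached at most 1.03 FPKM, and EPCAM and CDH1 did not exceed 0.14 FPKM in any library. VIM, a mesenchymal filament gene, stood at 543 to 634 FPKM in the overexpression libraries and at 198 to 250 FPKM in the vector libraries. ZEB1, the other mesenchymal gene read, overlapped between groups, at 2.56 to 3.98 FPKM in overexpression libraries and 2.61 to 3.39 FPKM in vector libraries. The part of such markers in the results below was not tested. PTPRC, CD3E and HBB, of blood cells, were listed at 0 in all 6 libraries, while HBA1, the other erythroid gene read, was at 0.57, 0.14 and 0.12 FPKM in the overexpression libraries and at 0, 0 and 0.88 FPKM in the vector libraries. The leukocyte gene CD68 lies in a row joined with EIF4A1 and SENP3, at 22.68 to 37.88 FPKM, so its own level cannot be read.

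Ribosomal protein mRNAs were higher in LINC00901-overexpressing cells almost without exception. Of the 72 members with a mean of at least 1 FPKM, 67 were called higher and 0 lower, where 37.4% of all tested genes were called higher and 11.9% lower. At an adjusted p under 0.01 the count was 61, against 23.6% of all tested genes. The 72 unscaled differences were all above 0, from 0.29 to 3.66 log2, with a median of 1.11 against 0.27 for all tested genes. Under other scalings, given at the end, 0 to 11 of the 72 turned below 0, none of them called. In 68 of the 72 the groups did not overlap, every overexpression library being above every vector library, as was so for 44.9% of all tested genes. No member had all vector libraries above all overexpression libraries, against 15.6% of all tested genes. The remaining 3 members, the paralogues RPL3L, RPL10L and RPL39L, were too low to test. The sum of the members took 7.19%, 7.15% and 7.07% of all FPKM in the overexpression libraries, against 4.44%, 4.26% and 4.40% in the vector libraries, and these shares did not overlap. The sum was 9151 ± 107 FPKM in overexpression libraries and 3829 ± 101 FPKM in vector libraries (SD, n = 3 each). In bulk samples, more cells of a type and more RNA per cell cannot be told apart. No row name in the table follows the pattern of a ribosomal protein pseudogene, and reads from the many near-identical pseudogene copies could be shared with the members, so single levels are uncertain.

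**Figure D1:**
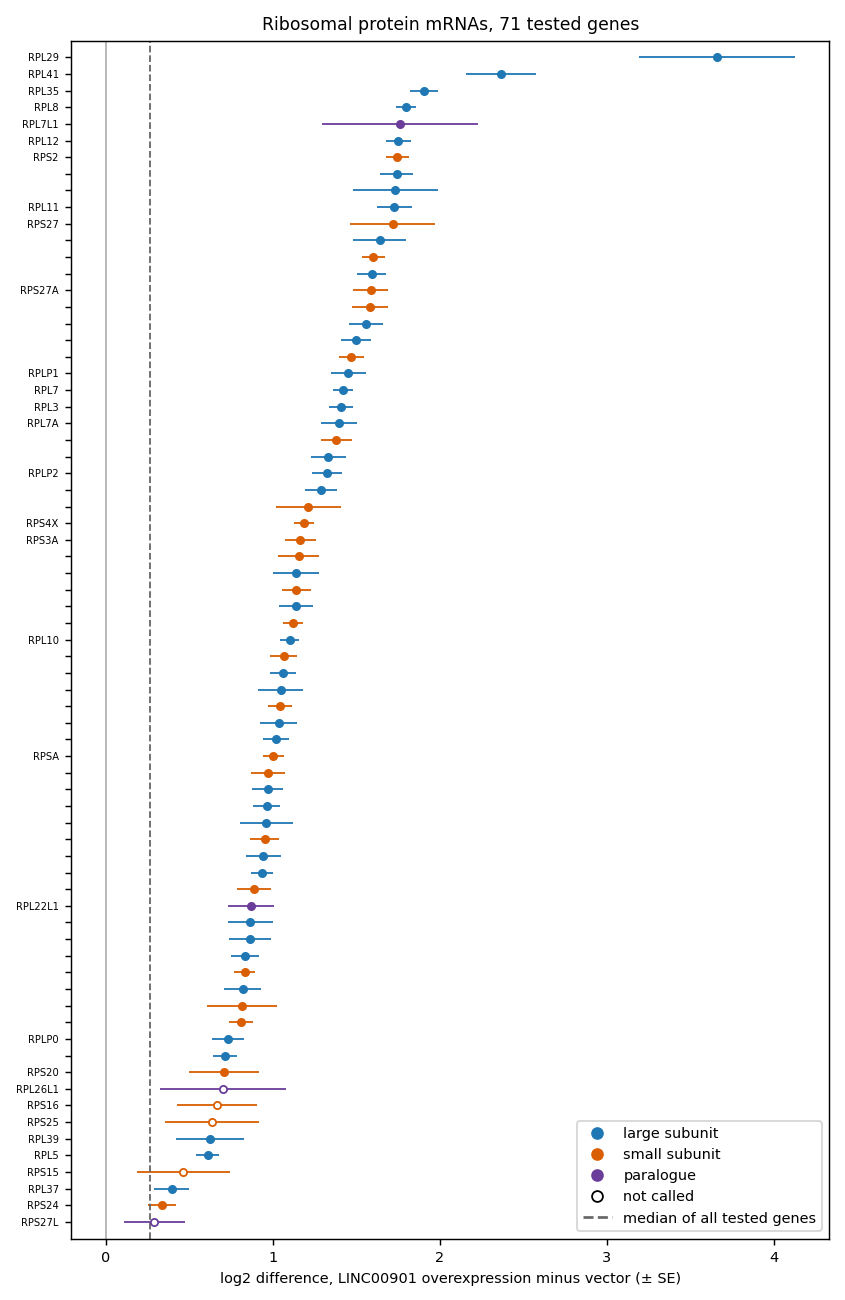
Log2 difference (overexpression minus vector, x axis, ± SE from limma, n = 3 libraries per group) of 71 of the 72 tested ribosomal protein genes, ordered by size and with a symbol beside those named in the text; filled points were called and open points were not. The points run from 0.29 for RPS27L to 3.66 for RPL29, and all lie above the dashed line at 0.27, the median of all tested genes.

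The starts of many of the genes, though not all, show a TOP-like feature, which the naming rule did not use. RefSeq start windows (GRCh38.p14, 250 bases before to 50 after each start) were matched by symbol for 60 of the 75 members, 11 of which have several starts. A start base C followed by 4 bases that are each C or T was present at a start of 41 of these 60 members, and at 41 of their 76 windows (53.9%), against 1429 of all 35116 windows (4.07%). The motif CTTTC, itself such a run and so overlapping with this rule, lay on the gene strand within 15 bases of the start in 36.8% of member windows and 4.52% of all windows. Over whole windows it was found in 59.2% on the gene strand and 35.5% on the other strand, against 32.7% and 32.9% of all windows. The ETS-type motif CGGAAG occurred in 35.5% of member windows on the gene strand and 34.2% on the other, against 11.3% and 10.6% of all windows. TATAAA was found in 5.26% of member windows on the gene strand and 3.95% on the other, against 7.33% and 5.83%. The sequences below are 50 bases each, 30 before the annotated start and 20 from it on, read on the gene strand. Capitals mark the uninterrupted run of C and T that begins at the start base where that run meets the rule. They show large and small rises among canonical genes with such a run, and paralogues beside a parent. RPL3 begins with a run of 4 C and T bases, too short for the rule, and is left in lower case.
RPL29 (chr3:51995876-51995925, minus strand): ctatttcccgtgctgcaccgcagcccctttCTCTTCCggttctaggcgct
RPL35 (chr9:124861938-124861987, minus strand): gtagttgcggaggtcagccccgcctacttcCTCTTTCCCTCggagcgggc
RPL12 (chr9:127451387-127451436, minus strand): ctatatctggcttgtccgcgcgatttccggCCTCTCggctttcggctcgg
RPL3 (chr22:39319604-39319653, minus strand): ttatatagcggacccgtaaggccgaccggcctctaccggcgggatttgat
RPS24 (chr10:78033833-78033882, plus strand): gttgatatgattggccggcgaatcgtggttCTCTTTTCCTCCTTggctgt
RPL39 (chrX:119791611-119791660, minus strand): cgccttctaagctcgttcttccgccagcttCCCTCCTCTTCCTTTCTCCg
RPL22L1 (chr3:170870176-170870225, minus strand): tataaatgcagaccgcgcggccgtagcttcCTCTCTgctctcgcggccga
RPL7L1 (chr6:42879586-42879635, plus strand): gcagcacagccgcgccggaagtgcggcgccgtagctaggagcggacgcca
RPS27 (chr1:153990732-153990781, plus strand): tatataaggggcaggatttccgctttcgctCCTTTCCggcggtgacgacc
RPS27L (chr15:63157458-63157507, minus strand): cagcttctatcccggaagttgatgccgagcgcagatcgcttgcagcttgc
A C/T run at the start was present in genes at both ends of the range of differences, RPL29 and RPL35 as well as RPS24 and RPL39. Among tested members with a RefSeq window, 39 of 41 with a start that meets the rule were called higher (median unscaled difference 1.14 log2). So were 15 of 18 without one (median 0.91 log2), a group that includes RPL3 with its shorter run. Of all tested genes 37.4% were called higher, with a median of 0.27 log2. Of the paralogues, RPL22L1 has a C/T run at its start, while RPL7L1 and RPS27L, in these windows, do not.

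All 40 canonical large-subunit genes were called higher, against 37.4% of all tested genes, with a median unscaled difference of 1.14 log2. RPL29, a large-subunit protein, had the largest difference of all members. It had 61.3, 106 and 28.0 FPKM in overexpression libraries, against 4.98, 2.69 and 4.79 FPKM in vector libraries. The overexpression libraries were spread widely but all far above the vector libraries, and the relative log2 difference was 3.396 (limma adjusted p = 0.00108). RPL41, which encodes the shortest ribosomal protein, was next, at 247, 413 and 382 FPKM in the overexpression libraries against 62.3, 78.5 and 56.9 FPKM in the vector libraries. Its relative log2 difference was 2.10 (limma adjusted p = 0.000304).

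Proteins of the catalytic and tunnel regions were among those called. RPL35, which sits at the exit of the tunnel through which the nascent chain leaves, had 188, 168 and 191 FPKM in overexpression libraries, against 44.1, 49.2 and 51.6 FPKM in vector libraries. RPL8, a core protein close to the peptidyl transferase centre, had 269, 269 and 292 FPKM in overexpression libraries, against 76.7, 80.3 and 80.8 FPKM in vector libraries. These replicates lay close together, and the relative log2 differences were 1.64 for RPL35 and 1.53 for RPL8 (limma adjusted p = 4.35e-05 and 3.72e-05). RPL3, another protein near the catalytic centre, stood at 171, 162 and 180 FPKM in overexpression libraries and at 64.3, 60.6 and 67.3 FPKM in vector libraries, a relative log2 difference of 1.14. RPL10, which joins the subunit late in its assembly, stood at 170, 170 and 176 FPKM in overexpression libraries and at 76.8, 82.0 and 81.2 FPKM in vector libraries, a relative log2 difference of 0.84. Its groups were separate, as were those of RPL3 (limma adjusted p = 6.21e-05 for RPL3 and 6.9e-05 for RPL10). The call of RPL10 was lost with trends on length, GC content and level removed (0.15 log2, adjusted p = 0.0774). RPL7, whose paralogue is described below, had 179, 170 and 176 FPKM in overexpression libraries, against 64.7, 62.9 and 67.4 FPKM in vector libraries, and its groups were separate too.

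RPL7A was the highest member in every library. It had 723, 731 and 568 FPKM in overexpression libraries, against 267, 263 and 233 FPKM in vector libraries, a relative log2 difference of 1.13 (limma adjusted p = 0.000197). By mean level it was followed by RPS4X, a small-subunit protein encoded on the X chromosome, with 403, 357 and 382 FPKM in overexpression libraries, against 165, 166 and 169 FPKM in vector libraries. RPS3A, also of the small subunit, came next with 394, 311 and 349 FPKM in overexpression libraries, against 157, 161 and 149 FPKM in vector libraries. For each of the 3 genes the overexpression and vector libraries were separate. The levels of RPS4X and RPS3A overlapped each other in overexpression libraries and were close but separate in vector libraries. With quantile normalization RPL7A (0.37 log2, adjusted p = 0.136) and RPS3A (0.22 log2, adjusted p = 0.154) were not called.

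The stalk of the large subunit, which recruits translation factors, is formed by RPLP0 with RPLP1 and RPLP2 on the base protein RPL12. RPL12 had 194, 211 and 209 FPKM in overexpression libraries, against 55.8, 61.2 and 64.7 FPKM in vector libraries, a relative log2 difference of 1.49. RPLP1 had 124, 150 and 131 FPKM in overexpression libraries, against 55.1, 45.5 and 46.4 FPKM in vector libraries, and RPLP2 had 113, 118 and 105 FPKM, against 45.8, 47.9 and 39.9 FPKM. The scaffold RPLP0 moved least, with 155, 135 and 131 FPKM in overexpression libraries, against 85.2, 75.9 and 91.8 FPKM in vector libraries. Relative log2 differences were 1.19 for RPLP1, 1.06 for RPLP2 and 0.47 for RPLP0 (limma adjusted p = 0.000175, 0.000144 and 0.00118), and the groups did not overlap for any of the 4. The difference of RPLP0 did not keep its sign under every scaling, at -0.13 log2 with quantile normalization and -0.19 log2 with a trend on length, GC content and level removed, and it was not called in these or at the same FPKM sum (0.19 log2, adjusted p = 0.133). With the same 3 trends removed RPLP2 was not called either (0.29 log2, adjusted p = 0.0721).

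RPL5 and RPL11 form, with a small ribosomal RNA, a complex that can bind MDM2, the ubiquitin ligase of p53. Both were called higher but by different amounts. RPL11 had 77.7, 59.5 and 65.8 FPKM in overexpression libraries, against 19.6, 19.8 and 20.4 FPKM in vector libraries, a relative log2 difference of 1.46 (limma adjusted p = 0.000115). RPL5 had 83.6, 76.1 and 78.6 FPKM in overexpression libraries, against 50.2, 51.2 and 54.0 FPKM in vector libraries, a relative log2 difference of 0.35 (limma adjusted p = 0.000654). With quantile normalization the difference of RPL5 was -0.11 log2, and with the trend on length, GC content and level removed it was -0.10 log2, and in both it was not called. Nor was it at the same FPKM sum (0.068 log2, adjusted p = 0.425).

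RPL37 and RPL39 were the large-subunit genes whose call depended on single libraries. RPL39, a short protein that lines the exit tunnel, had 119, 87.1 and 110 FPKM in overexpression libraries, against 91.7, 61.3 and 55.3 FPKM in vector libraries. Vector replicate 1 was above overexpression replicate 2, so the groups overlapped, and the relative log2 difference was 0.36 (limma adjusted p = 0.0408). That call was lost without overexpression replicate 1 or 3 (adjusted p = 0.118 and 0.103) and without vector replicate 2 or 3 (adjusted p = 0.114 and 0.111). RPL37, a zinc-binding protein of the large subunit, stood at 21.8, 24.9 and 23.0 FPKM in overexpression libraries and at 16.9, 19.9 and 16.0 FPKM in vector libraries. The groups of RPL37 were separate but close, with a relative log2 difference of 0.13 (limma adjusted p = 0.0208), and the call was lost without overexpression replicate 2 or 3 (adjusted p = 0.0652 and 0.0587) and without vector replicate 1 or 3 (adjusted p = 0.0561 and 0.0558). Neither gene was called under any of the 5 scalings, with median centring giving adjusted p = 0.217 for RPL37 and 0.143 for RPL39. With quantile normalization the differences were -0.079 log2 for RPL37 and -0.13 log2 for RPL39, and at the same FPKM sum RPL37 was at -0.14 log2.

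**Figure D2:**
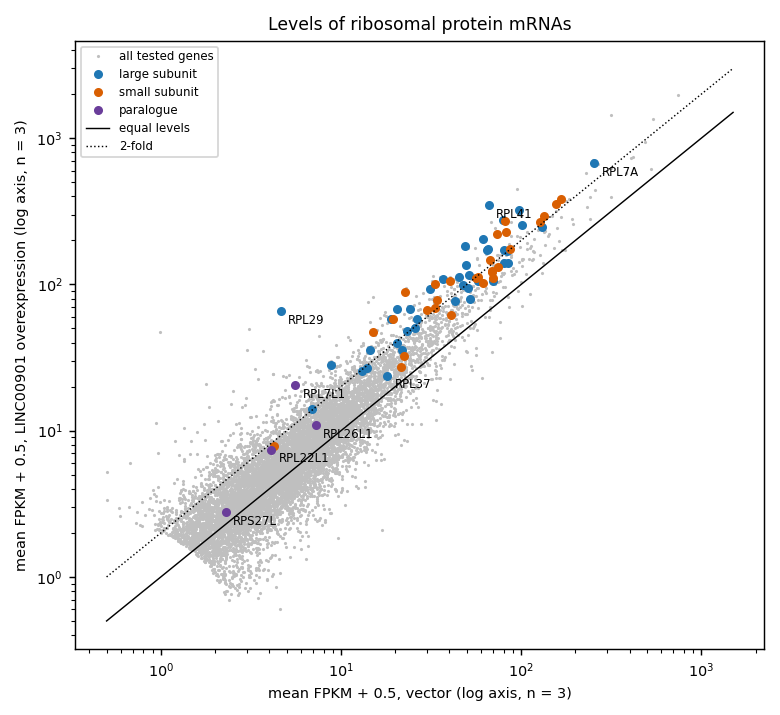
Mean FPKM + 0.5 of each tested row in overexpression libraries (y axis, log) against vector libraries (x axis, log), n = 3 libraries each; grey points are all tested genes, and coloured points are ribosomal protein genes by class. Most coloured points lie near or above the dotted 2-fold line, with RPL29 far above it and RPL37, RPL26L1 and RPS27L between it and the line of equal levels.

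Among the 28 canonical small-subunit genes, 25 were called higher and 0 lower, with a median unscaled difference of 1.09 log2. In 27 the overexpression libraries were all above the vector libraries. Of all tested genes 37.4% were called higher and 44.9% had groups separate in this direction. RPS2, at the channel through which mRNA enters, had 270, 272 and 274 FPKM in overexpression libraries, against 82.2, 73.9 and 86.6 FPKM in vector libraries. The overexpression libraries of RPS2 were nearly identical, and its relative log2 difference was 1.48 (limma adjusted p = 3.77e-05). RPS27A, made as a fusion with ubiquitin, had 59.4, 60.1 and 53.8 FPKM in overexpression libraries, against 20.8, 16.5 and 19.7 FPKM in vector libraries, a relative log2 difference of 1.32 (limma adjusted p = 0.000136). RPSA, also known as the laminin receptor precursor, had 167, 183 and 170 FPKM in overexpression libraries, against 84.5, 83.9 and 90.3 FPKM in vector libraries. Its groups were separate by a relative log2 difference of 0.74 (limma adjusted p = 0.000127), a call lost with quantile normalization (0.10 log2, adjusted p = 0.241) and with all 3 trends removed (0.13 log2, adjusted p = 0.129).

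RPS24, a gene mutated in Diamond-Blackfan anaemia, had the smallest difference of the canonical genes. It stood at 28.7, 25.3 and 26.3 FPKM in overexpression libraries and at 21.5, 21.8 and 19.9 FPKM in vector libraries. The groups did not overlap, and the relative log2 difference was 0.07 (limma adjusted p = 0.0157), so the gene moved about as far as the median gene. Its difference was -0.17 log2 with quantile normalization, -0.20 log2 with all libraries at the same FPKM sum and -0.17 log2 with the trend on length, GC content and level removed, and it was called under none of the 5 scalings.

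For RPS15, RPS16, RPS20 and RPS25 the call changed when 1 library was left out. RPS16, whose tail reaches the peptidyl site, had 59.6, 61.8 and 63.1 FPKM in overexpression libraries, against 31.6, 30.7 and 59.1 FPKM in vector libraries, and was not called (limma adjusted p = 0.0555). Vector replicate 3 lay close to the overexpression libraries, and without it the adjusted p was 0.000774 and the unscaled log2 difference 0.97 in place of 0.67. The same library was high for RPS20, with 106, 117 and 108 FPKM in overexpression libraries, against 57.0, 55.2 and 96.5 FPKM in vector libraries. RPS20 was called (limma adjusted p = 0.0278), but not without any one of the other 5 libraries, where the adjusted p ran from 0.0615 to 0.0814. It was not called under any of the 5 scalings (adjusted p = 0.0848 with median centring), and its difference was -0.071 log2 with quantile normalization and -0.039 log2 with all 3 trends removed. RPS25, which some viral mRNAs need for internal initiation, had 155, 70.4 and 77.6 FPKM in overexpression libraries, against 57.7, 65.2 and 59.3 FPKM in vector libraries. It was not called (limma adjusted p = 0.0998), and without overexpression replicate 1, which stood far above the others, the adjusted p was 0.0478 with an unscaled log2 difference of 0.28 in place of 0.64. RPS15, near the decoding site, had 46.3, 28.6 and 20.5 FPKM in overexpression libraries, against 24.6, 22.0 and 18.7 FPKM in vector libraries, with overlapping groups. It was not called (limma adjusted p = 0.203). Without overexpression replicate 3 the adjusted p of RPS15 was 0.0449 at 0.74 log2, and without overexpression replicate 1 the difference was 0.16 log2.

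Paralogues were low beside their parents, apart from RPL22L1, which stood at 45.45% to 63.11% of a parent row joined with CHD5. RPL3L, known from striated muscle, and RPL10L, known from testis, were listed at 0 in all 6 libraries. RPL39L, described in testis and in tumours, was listed at 0.23, 0 and 0 FPKM in overexpression libraries and at 0, 0.38 and 0 FPKM in vector libraries. The parents RPL3, RPL10 and RPL39 had means of 64.1 FPKM or more in both groups. The other 4 paralogues were tested, and 2 were called higher, 0 lower, where 37.4% of all tested genes were called higher and 11.9% lower.

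RPL22L1, the paralogue of RPL22, had 6.88, 7.28 and 6.64 FPKM in overexpression libraries, against 4.38, 3.25 and 3.17 FPKM in vector libraries. The groups were separate by a relative log2 difference of 0.60 (limma adjusted p = 0.00248), a call lost at the same FPKM sum (adjusted p = 0.0668). Its parent is part of a row that joins RPL22 with CHD5, at 12.4, 13.5 and 14.6 FPKM in overexpression libraries and 6.94, 6.12 and 5.84 FPKM in vector libraries. RPL7L1, a relative of RPL7 that acts in ribosome assembly, had 26.3, 8.25 and 25.1 FPKM in overexpression libraries, against 3.08, 5.61 and 6.53 FPKM in vector libraries. Overexpression replicate 2 lay only slightly above the vector libraries, and the relative log2 difference was 1.497 (limma adjusted p = 0.0194). The RPL7L1 call was lost without overexpression replicate 1 or 3 (adjusted p = 0.0629 and 0.0613) and without vector replicate 1 (adjusted p = 0.0582), and at the same FPKM sum (adjusted p = 0.0652).

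RPL26L1, a near-identical copy of RPL26, and RPS27L, a p53-inducible relative of RPS27, were not called. RPL26L1 had 12.6, 8.95 and 9.55 FPKM in overexpression libraries, against 3.03, 7.58 and 9.56 FPKM in vector libraries, with overlapping groups (limma adjusted p = 0.161). Its unscaled log2 difference of 0.70 was 0.25 without vector replicate 1. RPS27L had 2.48, 2.23 and 2.12 FPKM in overexpression libraries, against 1.27, 2.27 and 1.87 FPKM in vector libraries, also with overlapping groups (limma adjusted p = 0.228). Its parent RPS27, a zinc-binding small-subunit protein, had 46.6, 45.5 and 48.6 FPKM in overexpression libraries, against 16.1, 18.8 and 8.82 FPKM in vector libraries, separate groups with a relative log2 difference of 1.45 (limma adjusted p = 0.00186).

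**Figure D3:**
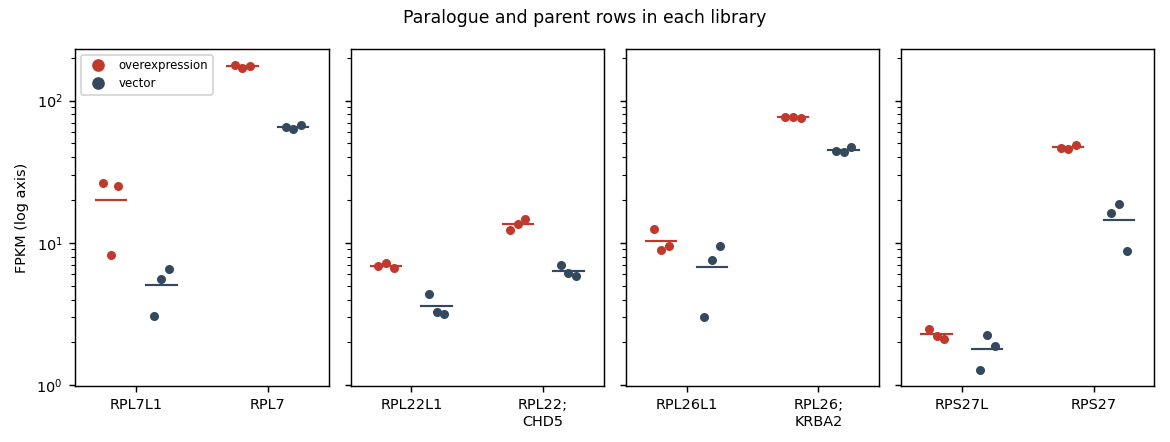
FPKM (y axis, log) of 4 paralogues and their parent rows, 1 point per library and a bar at the mean of 3; RPL22 and RPL26 are read from rows joined with another gene. RPS27L lies between 1.27 and 2.48 FPKM in all 6 libraries while RPS27 lies higher in each overexpression library than in any vector library.

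The ratio of a paralogue to its parent is not altered by multiplying a library by a constant, apart from the pseudocount, and was compared in 5 pairs on the values as deposited. Quantile normalization acts by rank within a library, and trend removal by length, GC content and level, so both can alter it. RPS27L stood at 5.32%, 4.90% and 4.36% of RPS27 in overexpression libraries, against 7.89%, 12.1% and 21.2% in vector libraries. The groups did not overlap, and the log2 ratio was lower by -1.43 ± 0.375 (SE, n = 3 each; exact permutation test, two-sided, p = 0.1, adjusted over the 5 pairs p = 0.25). RPL36AL, which lies outside the naming rule, stood at 73.8%, 63.3% and 66.3% of the joined row holding RPL36A in overexpression libraries, against 44.9%, 53.8% and 29.3% in vector libraries, a log2 ratio higher by 0.67 ± 0.253 (SE, n = 3 each; exact permutation p = 0.1, adjusted p = 0.25). In both, the exact permutation p = 0.1 is the smallest that 3 libraries against 3 can give, so no pair could pass a threshold of 0.05. With quantile normalization the log2 differences were 0.16 for RPS27L and 1.21 for RPS27, and 1.44 for RPL7L1 and 0.62 for RPL7. The log2 ratio differed by 0.34 ± 0.583 for RPL7L1, -0.17 ± 0.108 for RPL22L1 and -0.05 ± 0.468 for RPL26L1 (SE, n = 3 each; exact permutation p = 0.6, 0.2 and 0.9). Single libraries moved the estimates by over 1.5 times in 4 pairs. RPL22L1 was at -0.088 without overexpression replicate 3, and RPL36AL at 0.43 without vector replicate 3. The estimate of RPL7L1 ran from 0.054 without vector replicate 1 to 0.85 without overexpression replicate 2, and that of RPL26L1 from -0.49 without vector replicate 1 to 0.22 without vector replicate 3.

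Ribosomal proteins that the naming rule leaves out behaved alike in direction. Of these, 9 rows join a ribosomal protein with other genes (among them RPL13A, RPL17, RPL22, RPL26, RPL36, RPL36A, RPS10 and RPS15A), and their values cannot be assigned to 1 gene. All 9 were called higher, with unscaled differences from 0.68 to 1.92 log2 and no overlap between groups. Of all tested genes 37.4% were called higher, and 44.9% had overexpression libraries all above vector libraries. RACK1, a signalling scaffold on the small subunit, had 89.8, 84.4 and 78.3 FPKM in overexpression libraries, against 41.7, 43.6 and 42.6 FPKM in vector libraries. RPL36AL had 30.8, 30.6 and 27.5 FPKM in overexpression libraries, against 8.65, 10.3 and 5.95 FPKM in vector libraries. The groups of both were separate, with relative log2 differences of 0.71 for RACK1 and 1.54 for RPL36AL (limma adjusted p = 0.000182 and 0.000497). RACK1 was not called with all 3 trends removed (0.12 log2, adjusted p = 0.232). The joined row of FAU, a ubiquitin-like fusion, and SYVN1 had 9.26, 14.6 and 12.6 FPKM in overexpression libraries, against 7.31, 7.07 and 9.44 FPKM in vector libraries, and its groups overlapped (limma adjusted p = 0.0404), a call lost with median centring (adjusted p = 0.157).

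Other genes whose mRNAs carry a TOP start moved in the same direction. Of 17 in single-name rows, which include RACK1, 15 were called higher and 0 lower (median unscaled difference 0.87 log2). Of all tested genes 37.4% were called higher and 11.9% lower (median 0.27 log2). Genes with large differences were EEF2, the translocation factor, EEF1B2, which recharges the elongation factor with GTP, BTF3, of the nascent chain complex, and EIF3H, a subunit of an initiation factor. EEF2 averaged 703 ± 36.0 FPKM in overexpression libraries and 251 ± 4.73 FPKM in vector libraries (SD, n = 3 each), a relative log2 difference of 1.22. The relative log2 difference was 1.13 for EEF1B2, 1.09 for BTF3 and 1.09 for EIF3H (limma adjusted p = 3.77e-05 for EEF2, 0.000182 for EEF1B2, 4.35e-05 for BTF3 and 0.000219 for EIF3H). EIF4B and NAP1L1, named after their values were seen, were not called (limma adjusted p = 0.14 and 0.943). With quantile normalization 10 of the 17 were called higher and 1, the nucleolar chaperone NPM1, lower (-0.28 log2, limma adjusted p = 0.0133). The shares of all tested genes were then 19.2% higher and 20.9% lower. Of 7 chaperones and assembly partners of single ribosomal proteins in single-name rows, of which NAP1L1 is also in the list above, 3 (42.9%) were called higher and 0 lower, with a median unscaled difference of 0.29 log2, both near the values for all tested genes (37.4% and 0.27 log2). These were AAMP, whose yeast relative is a chaperone of RPL10, PDCD2, a chaperone of RPS2, and BCCIP, a partner of RPL23, with relative log2 differences of 0.49, 0.33 and 0.30 (limma adjusted p of the unscaled values 0.00237, 0.0292 and 0.00305). At the same FPKM sum none of the 3 was called (adjusted p = 0.134 for AAMP, 0.76 for PDCD2 and 0.73 for BCCIP), and PDCD2 was not called under any of the 5 scalings.

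Proteins of the mitochondrial ribosome, which translate the mitochondrial genome, were also mostly higher. Of 61 tested, 40 (65.6%) were called higher and 0 lower, with a median unscaled difference of 0.65 log2. The values were 67 of 72 and 1.11 log2 for the cytosolic genes, and 37.4% and 0.27 log2 for all tested genes. At the same FPKM sum 16 (26.2%) were called higher and 3 lower, where 11.9% of all tested genes were higher and 34.5% lower. Removing the length and GC trend left 24 (39.3%) called higher and 1 lower, against 21.1% and 21.0% of all tested genes. With quantile normalization 19 (31.1%) were called higher and 0 lower, against 19.2% and 20.9%. The largest were MRPL54, MRPL24 and MRPL2, with relative log2 differences of 1.88, 1.69 and 1.48. Their summed share of all FPKM was 0.741% ± 0.00202 in overexpression libraries and 0.616% ± 0.00825 in vector libraries (SD, n = 3 each). The difference between the 2 sets was not tested.

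Level and transcript length moved with the differences, and their part in them was not tested beyond the comparisons here. Ribosomal protein mRNAs are short and abundant: 60 of the 72 were in the shortest quintile of tested genes and 67 in the highest quintile by mean FPKM. Genes outside the set had a median unscaled difference of 0.52 log2 in that highest quintile and 0.09 log2 in the lowest, and 0.39 log2 in the shortest quintile and 0.12 log2 in the longest. Level is the mean over overexpression and vector libraries together, so it is not independent of the difference between them. The level trend removed below is also taken on the mean of all libraries. Among the 422 other genes in both the shortest and the highest quintile, 69.9% were called higher and the median difference was 0.66 log2. Of the 56 members in the same stratum 53 were called higher, with a median of 1.11 log2. Within the 72 members the difference varied little with length (Spearman's rho 0.104 across genes) and somewhat with GC content (0.282) and mean level (0.25), as a description, since these genes share libraries and are not independent. Their order by level was close in both groups (rho 0.936 between mean FPKM in overexpression and in vector libraries). The spread between replicates was smaller for members than for tested genes in general, with a median SD of 0.0899 log2 in overexpression and 0.117 log2 in vector libraries, against 0.13 and 0.17 log2 for all tested genes.

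**Figure D4:**
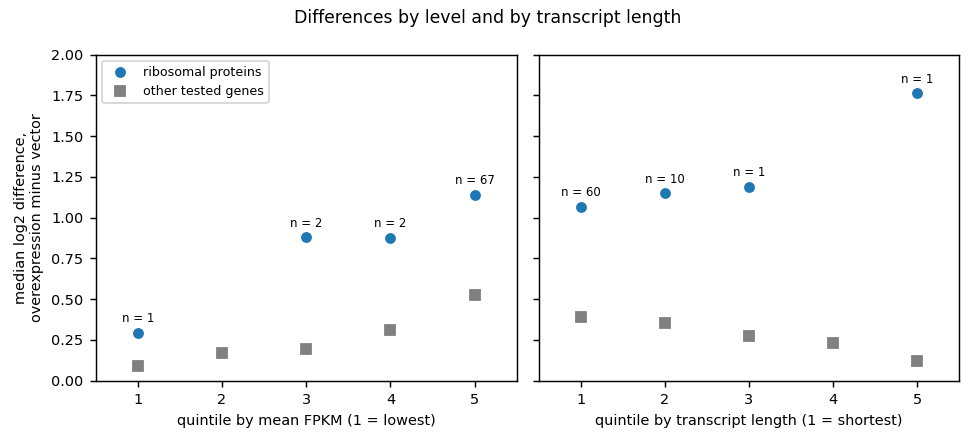
Median log2 difference (overexpression minus vector, y axis) of ribosomal protein genes (circles, with their number) and of all other tested genes (squares), by quintile of mean FPKM on the left and of transcript length on the right. The squares climb from 0.09 to 0.52 with level and fall from 0.39 to 0.12 with length, and in each quintile that holds members the circle is higher.

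How many members were called depended on how the libraries were put on a common scale, while none was called lower under any of the 5 scalings tried. With each library centred on its median gene, 62 of 72 were called higher, where 24.0% of all tested genes were called higher and 19.2% lower. With trends on length and GC removed, 62 were again called higher (all tested genes 21.1% higher and 21.0% lower). With all libraries brought to the same FPKM sum, as in TPM, 53 were called higher, where all tested genes split into 1155 higher (11.9%) and 3345 lower (34.5%). The count was 41 with quantile normalization (all tested genes 19.2% higher and 20.9% lower) and 40 with a trend on length, GC content and mean level removed (18.3% and 19.5%). The median difference of the members was 0.90 log2 with median centring, 0.69 with the length and GC trend removed, 0.57 at the same FPKM sum, 0.44 with quantile normalization and 0.38 with all 3 trends removed. The difference was below 0 for 9 members with quantile normalization, 11 with all 3 trends removed, 4 at the same FPKM sum, 1 with the length and GC trend removed and 0 with median centring. As deposited and under all 5 scalings, 36 members were called higher, among them RPL29, RPL41, RPL35, RPL8, RPL12 and RPS2. The matching count over all tested genes was not taken. It cannot exceed the 1155 (11.9%) called higher at the same FPKM sum. The part of library composition in these differences was not tested beyond this.

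**Figure D5:**
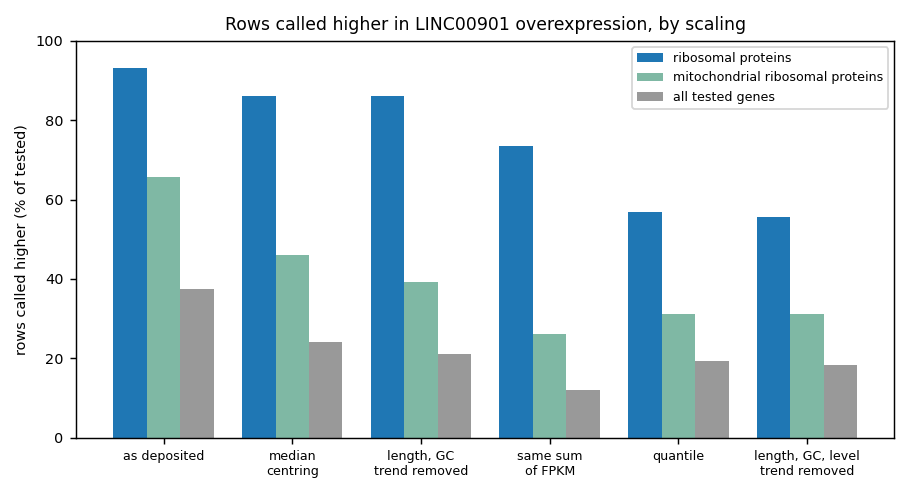
Percentage of tested rows called higher in overexpression libraries (y axis, limma adjusted p under 0.05) for ribosomal proteins, mitochondrial ribosomal proteins and all tested genes, under 6 ways of scaling the 6 libraries. The bars of the ribosomal proteins run from 93.1% as deposited to 55.6% with length, GC and level trends removed, against 37.4% and 18.3% for all tested genes.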

How the data were processed

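The deposited table holds FPKM values, which the authors had already normalized per gene length and library total, with 1 column per library. The submitters' processing notes name HISAT2, cutadapt and FastQC, and hg19 as the build; which tool made the FPKM values, and all versions, are not given in the sources here. Whole reads were not recovered from low values, since no ratio between replicates was shared by more than 5.03% of low rows (bins of 0.05 log2), so depth is unknown and no count model was used. Of the 18268 rows, 3750 are at 0 in all libraries, among them all 13 mitochondrially encoded genes, so a 0 is reported as listed at 0.

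Values were taken as log2(FPKM + 0.5), rows with a mean of at least 1 FPKM were kept (9694), and limma 3.58.1 (R 4.3.3) compared the groups (intensity trend, no replicate block, Benjamini-Hochberg threshold 0.05). Paralogue ratios used an exact permutation test. The fit was tested on simulated data. Transcript length and GC content were medians over coding transcripts in GENCODE 29, matched by symbol for 91.1% of tested rows; that annotation and the RefSeq windows are of another build than the authors' table and were used by name. Tables and permutations were made with scipy 1.17.1, numpy 2.4.6 and pandas 2.3.3, and plots with matplotlib 3.10.9, in Python 3.11.15.

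The members and lists were chosen with earlier results of these data known. Named members followed a rule: paralogues and parents, stalk genes, the 8 largest and 5 smallest differences, uncalled members, members whose call rests on 1 library, the 3 highest levels, and RPS27A, RPSA, RPL5 and RPL11. Of other lists, up to 4 genes each were named by the size of their difference. Some items that the rule names are not reported here. Alternatives were other pseudocounts, filters, scalings, variance settings, a stricter threshold, the replicate block and leaving out each library.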

Additional observations from a re-analysis of the deposited data

How the results depend on the processing

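The count of ribosomal protein genes called higher, 67, was 41 with quantile normalization and 40 with the length, GC and level trend removed; under the other alternatives it ran from 53 to 68 of the tested members, or 76 of 81 with joined rows, and 64 to 66 without a single library. The count called lower was 0 in each. For all tested genes, 3621 higher and 1152 lower became 2331 and 1866 with median centring, 1865 and 2024 with quantile normalization, 1155 and 3345 at the same FPKM sum, 1865 and 1850 with the length and GC trend removed, 1620 and 1724 with level as well, 2396 and 422 with a mean of at least 5 FPKM, and 2287 and 594 at an adjusted p of 0.01. TOP genes called higher fell to 9 of 17 at the same FPKM sum and with all trends removed. Assembly partners called higher were 0 at the same sum and 1 with quantile normalization or either trend correction. Mitochondrial ribosomal proteins called higher were 16 at the same sum, 24 with the length and GC trend removed, and 19 with level as well or with quantile normalization. The cause of these shifts was not tested.

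Same-numbered libraries did not deviate together (correlations of deviations -0.037, -0.0057 and -0.005). That cannot show whether they were prepared together, and the labels do not say. With the replicate block 68 members were called higher and 0 lower (all tested genes 3262 and 965), RPS16 being added at a limma adjusted p of 0.0441. In the paired form of the exact permutation test of ratios, the smallest p is 0.25. The ratio difference of RPL26L1 ran from -0.49 to 0.22 over the libraries left out.

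For 32 named members, over 575 values under alternatives, 511 kept direction and call, 38 lost the call, 4 gained it and 22 reversed. Reversed log2 differences with quantile normalization were -0.079 (RPL37), -0.13 (RPL39), -0.11 (RPL5), -0.13 (RPLP0), -0.053 (RPS15), -0.071 (RPS20), -0.17 (RPS24) and -0.15 (RPS25). At the same FPKM sum they were -0.14 (RPL37), -0.072 (RPS15), -0.20 (RPS24) and -0.15 (RPS27L). With the length and GC trend removed RPS15 was at -0.16, and with level as well the values were -0.071 (RPL37), -0.043 (RPL39), -0.10 (RPL5), -0.19 (RPLP0), -0.43 (RPS15), -0.16 (RPS16), -0.039 (RPS20), -0.17 (RPS24) and -0.19 (RPS25). None of these passed the threshold. With no depth, the counting error of low rows such as RPS27L cannot be given.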
